A study of Mus musculus with 4 samples.

Results

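The replication-dependent histone genes were examined in 2-cell mouse embryos cultured with or without dimethyl sulfoxide (DMSO). Members were the rows of the expression table whose Ensembl identifier carries, in GENCODE M21, a symbol starting with Hist1h, Hist2h, Hist3h or Hist4. There were 67 such rows of 30049 in all, with 6 rows for H1, 20 for H2A, 16 for H2B, 12 for H3 and 13 for H4. The embryos were wild-type F2 embryos of BDF1 × BDF1 matings. Zygotes taken 18 h after hCG injection were grown for 24 h in the embryo culture medium KSOM, either unsupplemented (control) or with 2% DMSO. For each group 50 embryos were lysed directly and their RNA was turned into cDNA, and each group has 2 libraries, called replicates 1 and 2. The sources used here do not state whether the replicates came from separate cultures, so p-values measure only the spread between these libraries. Values are in TPM, a unit of transcript abundance, which are scaled by transcript length and by library total and keep no depth, so the depth of each library is unknown. The table summed to 768174 and 780527 TPM in the control libraries and to 772487 and 799166 TPM in the DMSO libraries.

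Core histones form the spool around which DNA is wrapped, with H2A pairing with H2B and H3 pairing with H4, while the linker histone H1 binds between spools. Replication-dependent genes are the clustered, mostly intronless copies that supply these proteins when DNA is replicated. Their mRNAs classically end in a short stem-loop, bound by stem-loop binding protein (SLBP), and not in a poly(A) tail. Oocytes store histone mRNAs for the first divisions of the embryo, and some of those stored mRNAs can carry a poly(A) tail. The cDNA kit used for these libraries primes on poly(A). How far that priming shaped the values was not tested.

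The labelled stage was compared with marker genes. Of 8 genes of the 2-cell stage (Zscan4 and Tcstv families) 7 had a row, and together they summed to 662 and 497 TPM in the control libraries and to 1719 and 1207 TPM in the DMSO libraries, Tcstv3 being the most abundant. Zscan4a was not analysed here. The 8 genes of oocyte and zygote summed to 12701, 16032, 13599 and 17368 TPM in control 1, control 2, DMSO 1 and DMSO 2, the order used for 4 values throughout. Dppa3 made up most of that sum and overlapped between groups, and Nlrp5 was under the filter of 1 TPM. Of the others, 4 were higher in both DMSO libraries than in either control, among them Bmp15 (102, 56.0, 544 and 285 TPM) and Oosp1 (877, 576, 2086 and 1763 TPM) beside Gdf9 and Zar1, whereas Zp3 and Mos were lower in both. Of all 12038 genes over the filter, 31.1% were likewise higher in both DMSO libraries and 38.7% lower, so nothing is read from these counts. The 8 genes of cumulus and granulosa cells, which surround the egg, summed to 1.06, 1.002, 1.96 and 1.57 TPM, with Amh at 0 in every library and Cyp19a1 the most abundant. The 6 genes of morula and blastocyst summed to 21.3, 15.97, 21.8 and 22.7 TPM, led by Nanog, with Cdx2 and Sox17 under the filter. The sum of the 2-cell list was thus higher in both DMSO libraries than in either control library. Tcstv3, Tcstv1, Zscan4f and Zscan4c followed it, while Zscan4d (8.62, 8.28, 9.24 and 7.12 TPM), Zscan4b and Zscan4e did not. The part of these 2-cell and oocyte genes in the histone values was not tested. In pooled whole embryos, fewer cells of a kind and less RNA per cell cannot be told apart.

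The stem-loop is the feature that sets these transcripts apart, so its sequence is shown for the members on which the results turn. It was searched in GENCODE M21 transcripts as a 6-base stem beginning with GG, a 4-base loop beginning with TT and the exact reverse complement of the stem, within 100 bases after the stop codon. Each line gives the transcript strand, 5′ to 3′, with the stem-loop in capitals and up to 5 flanking bases in lower case.
Hist1h2ap: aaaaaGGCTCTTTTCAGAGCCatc
Hist2h2aa1: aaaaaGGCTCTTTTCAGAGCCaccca
Hist1h2bj: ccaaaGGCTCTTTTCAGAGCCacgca
Hist1h2bk: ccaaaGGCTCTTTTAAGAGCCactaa
Hist2h3c1: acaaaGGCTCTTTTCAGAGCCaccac
Hist1h4c: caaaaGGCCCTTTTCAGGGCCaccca
Hist1h4i: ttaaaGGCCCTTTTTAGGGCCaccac
Hist4h4: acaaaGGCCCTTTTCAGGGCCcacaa
A stem-loop of this form was present in 42 of the 64 protein-coding members, of which 50 have 16 or more bases annotated after the stop codon. Of the other protein-coding genes with that many bases it was present in 8 of 20929, or 0.038%. Among those 8 were the histone genes H2afx and H2bfm. The other 14 coding members have fewer than 16 bases annotated after the stop codon, too few to hold it. Across the 42 members there were 6 distinct sequences. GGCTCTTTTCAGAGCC was the most frequent, with 24 members, and the H4 rows carried other stems, as in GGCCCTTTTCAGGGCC with 7 members. The match is a description of the annotated transcript and does not show how the mRNA in these embryos ended.

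Copies of these genes are alike, which limits what a single row can show. With transcripts cut into overlapping words of 31 bases, 40 members had more than 50% of their words in transcripts of another gene, and 4 members had all of them there. The authors' quantification splits such reads by an estimate. Sums over a histone type are therefore given before single rows, and they are described without a test. An exact permutation test of 2 libraries against 2 cannot go below p = 0.33.

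The rows differed widely in level. Of the 67, 7 were at 0 TPM in all 4 libraries, 34 were above 0 in each library and 26 in some libraries only. A mean of at least 10 TPM was reached by 5 rows and a mean from 1 to 10 TPM by 24. A single row, Hist1h2ap (an H2A gene, ENSMUSG00000094777, chr13:21833026-21833507, minus strand, GRCm38), had 668 and 959 TPM in the control libraries and 334 and 691 TPM in the DMSO libraries. It held 81.3% and 89.1% of the summed TPM of all members in the controls, and 60.3% and 77.4% with DMSO. Its rank among all rows was 160, 99, 311 and 129. The H3 rows, in contrast, held little of the TPM measured for H3 genes in these libraries, and the part of poly(A) priming in that share was not tested. The sum of H3 rows was 0.618%, 0.492%, 0.752% and 0.798% of the sum of H3 rows and the 2 genes of the replacement variant H3.3.

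The sums of the types moved differently (plot of summed TPM by type). The 16 H2B rows summed to 16.7 and 15.8 TPM in the control libraries and to 42.4 and 40.7 TPM in the DMSO libraries. The means were 16.2 ± 0.627 and 41.5 ± 1.17 TPM (SD, n = 2 each), 2.56-fold higher with DMSO and with no overlap between groups. The 13 H4 rows summed to 27.5, 22.5, 40.7 and 51.6 TPM, with means of 25.0 ± 3.58 and 46.1 ± 7.75 TPM (SD, n = 2 each), 1.85-fold higher with DMSO and also with no overlap. The 20 H2A rows summed to 716, 1008, 409 and 769 TPM, and the groups overlapped (862 ± 207 and 589 ± 254 TPM, SD, n = 2 each). This sum was nearly all Hist1h2ap. Without that row the other 19 summed to 48.0, 49.1, 74.9 and 78.3 TPM, 1.58-fold higher with DMSO and with no overlap. That difference in turn rested on Hist2h2aa1, for without both rows the other 18 summed to 29.7, 40.4, 24.4 and 45.2 TPM, with overlap and means of 35.0 and 34.8 TPM. The 12 H3 rows (14.5, 10.6, 17.9 and 13.1 TPM) and the 6 H1 rows (47.3, 19.3, 44.4 and 17.4 TPM) overlapped between groups. The H1 sum differed more between replicates of a group than between groups.

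**Figure D1:**
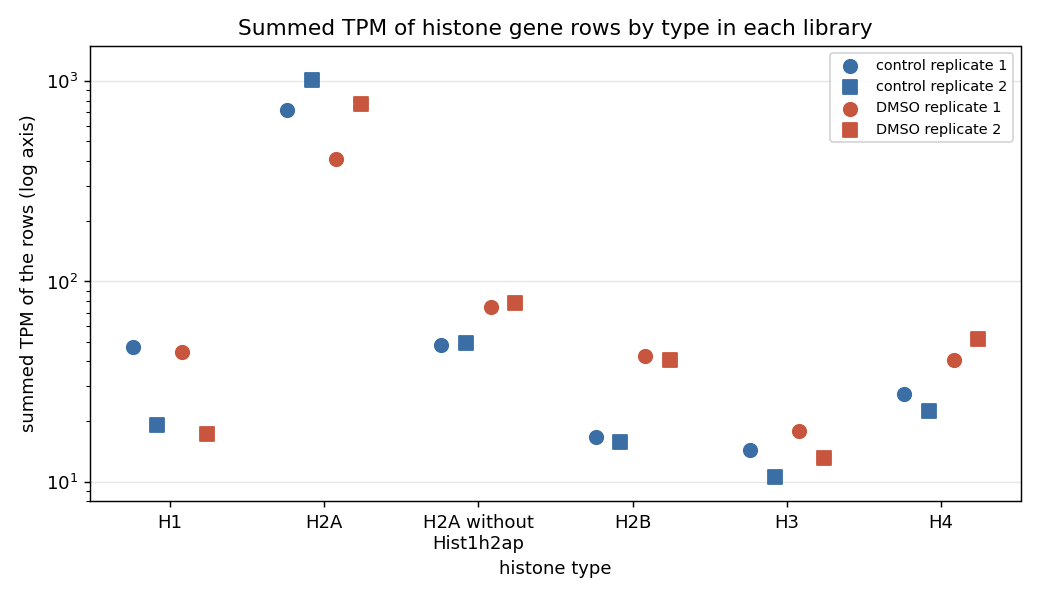
Summed TPM of the rows of each histone type (log axis) in each of the 4 libraries, blue for control and red for DMSO, circles for replicate 1 and squares for replicate 2. The H2B points sit at 16.7 and 15.8 TPM without DMSO and at 42.4 and 40.7 TPM with it, and the H2A points overlap until Hist1h2ap is left out.

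All members together summed to 822, 1077, 554 and 892 TPM, with overlap between groups. Without Hist1h2ap they summed to 154, 117, 220 and 201 TPM, 1.55-fold higher with DMSO. The 60 core rows other than Hist1h2ap gave 107, 97.9, 176 and 184 TPM, 1.76-fold higher. The 34 of them with a mean under 1 TPM summed to 10.0, 11.2, 8.96 and 11.9 TPM, with overlap, a split to which the DMSO values themselves contribute. Leaving out Hist1h2ap and the 3 rows that passed the test described below, the other 63 members of all types summed to 130, 101, 148 and 140 TPM, 1.24-fold higher with DMSO. The balance of the core types shifted as well. The H2A sum was 43.0 and 63.9 times the H2B sum in the controls and 9.66 and 18.9 times with DMSO. Without Hist1h2ap those ratios were 2.88, 3.11, 1.77 and 1.92, again with no overlap between groups.

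For single rows, limma was fitted to log2(TPM + 1) over the 12038 genes whose 4 libraries averaged 1 TPM or more, so fold changes are on that scale, which understates the change of low genes. Of the 67 members 29 were tested, from Hist1h2ai (mean 1.12 TPM) upward, while Hist1h4m (0.880 TPM) fell just short. At an adjusted p under 0.05, 3 members rose and 0 fell, against 6.42% of all genes tested that rose and 14.1% that fell. At an unadjusted p under 0.05, 8 members were higher and 1 was lower, against 15.8% and 24.3% of all genes tested. Hist1h2ba is among those 8 but passed the filter only through the DMSO libraries, so nothing is read from its direction. The 3 are 10.3% of the members tested, and with counts this small the share is not read against the background. Over all genes 773 rose and 1697 fell. After median-ratio scaling of the libraries the numbers were 949 and 1262, and after quantile normalization 1076 and 1121. The median log2 fold change of the 29 rows was 0.65, beside −0.09 for all genes tested. It depended on the rows admitted, being 0.47 over the 24 rows that averaged 1 TPM or more in each group, 0.41 over those averaging 5 TPM or more and 0.16 with no filter. The median of all genes was −0.19 over those averaging 5 TPM or more and 0.0012 with no filter. With DMSO both libraries lay above both controls for 16 of the 29 rows and below them for 3, against 31.1% and 38.7% of all genes tested. Of those 29 rows, 4 (Hist1h2ai, Hist1h2ba, Hist1h2bp and Hist3h2ba) passed the filter only through the DMSO libraries and 1 (Hist1h3g) only through the controls. Among the other 24, 12 lay wholly above the controls, 2 wholly below and 10 overlapped. Of the 31 rows above 0 but under 1 TPM, 19 had a higher mean with DMSO and 12 a lower one.

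**Figure D2:**
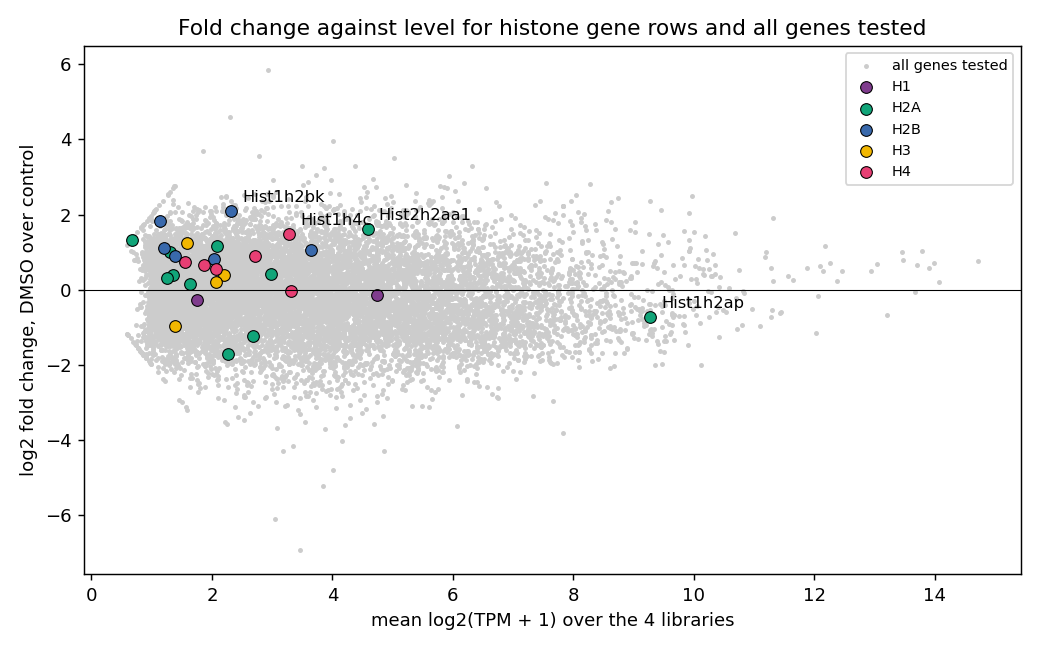
Log2 fold change of DMSO over control against the mean log2(TPM + 1) over the 4 libraries, in grey for the 12038 genes tested and in colour for the 29 histone rows by type. The 3 rows that rose and the abundant Hist1h2ap are named, and Hist1h2ap lies below 0. Most H4 rows lie above 0, as do the H2B rows Hist1h2bk, Hist1h2bj and Hist1h2bc. The other H2B rows shown passed the filter only through the DMSO libraries, so nothing is read from their direction.

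In H2B, 6 of the 16 rows were tested, and in each both DMSO libraries lay above both controls, as they did for 31.1% of all genes tested. Of the 6, Hist1h2ba, Hist1h2bp and Hist3h2ba reached the filter only through their DMSO values, so nothing is read from their direction, and Hist1h2bk, Hist1h2bj and Hist1h2bc remain. The sum over all 16 rows, given above, does not depend on the filter. Without Hist1h2bk the other 15 summed to 15.6, 13.9, 33.8 and 30.5 TPM, 2.18-fold higher with DMSO and with no overlap. Hist1h2bk (ENSMUSG00000062727, chr13:22035870-22036345, plus strand, GRCm38) had 1.04 and 1.88 TPM in the controls and 8.58 and 10.2 TPM with DMSO. Its log2 fold change was 2.09 ± 0.35 (SE, adjusted p = 0.0209) and was the largest of the 29 on the log2(TPM + 1) scale. With a pseudocount of 0.1, Hist1h2ba, Hist1h2ai and, in the lower direction, Hist2h2aa2 had larger ones. Leaving out 1 library at a time kept the log2 fold change between 1.85 and 2.34, while the adjusted p ran from 0.0476 to 0.155, under 0.05 only without DMSO replicate 2. Over all 11 alternative settings the adjusted p ran from 0.00354 to 0.155.

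Hist1h2bk shares 75.3% of its words with other genes, so its reads could have been split differently between libraries. The group of 10 rows that each hold at least 50% of its words, Hist1h2bk among them, summed to 16.2 and 13.9 TPM in the controls and to 34.4 and 35.9 TPM with DMSO, 2.34-fold higher. The 9 rows of this group other than Hist1h2bk gave 15.1, 12.0, 25.8 and 25.7 TPM. The rows differ in transcript length, so a different split of reads within the group would also move its TPM sum. Hist1h2bj, the most abundant H2B row, had 8.47, 6.98, 15.9 and 18.2 TPM and a log2 fold change of 1.05 ± 0.30 (SE), with an adjusted p of 0.0510 that missed the threshold. It passed in 4 of the 11 alternatives, in which the adjusted p ran from 0.0184 to 0.282. Its group of 5 rows sharing reads summed to 13.9, 11.1, 29.7 and 33.6 TPM, 2.53-fold higher with DMSO.

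Of the other H2B rows, Hist1h2ba encodes TH2B, a variant known from testis and oocyte. It was listed at 0.382 and 0 TPM in the controls and at 5.86 and 1.50 TPM with DMSO (log2 fold change 1.82, adjusted p = 0.0556). Hist1h2bc had 2.82, 1.50, 4.28 and 4.56 TPM (0.81, adjusted p = 0.143). Hist1h2bp had 0.549, 1.41, 3.81 and 1.65 TPM (0.89, adjusted p = 0.179). None of these 3 passed the test, nor did Hist3h2ba, the remaining row tested, with 0, 1.45, 1.84 and 3.004 TPM.

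H4 had 1 row that rose. Hist1h4c (ENSMUSG00000060678, chr13:23697635-23698454, minus strand, GRCm38) had 4.23 and 5.44 TPM in the controls and 12.8 and 18.3 TPM with DMSO, a log2 fold change of 1.49 ± 0.33 (SE, adjusted p = 0.0314). It shares 22.2% of its words with other genes, and no row holds 50% of them. Without any 1 library its log2 fold change lay between 1.25 and 1.74 and its adjusted p between 0.0924 and 0.169, above 0.05 in each case. Over the 11 alternatives the adjusted p ran from 0.00604 to 0.169.

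The other H4 rows fell into 2 kinds. Hist4h4, the lone histone gene of this set on chromosome 6, had 4.84, 2.96, 9.51 and 6.73 TPM (0.91, adjusted p = 0.114), and Hist1h4h had 2.49, 1.46, 3.87 and 3.34 TPM (0.65, adjusted p = 0.208). Both were higher in each DMSO library than in either control without passing the test. Hist4h4 did pass with the replicate block (adjusted p = 0.0315). Hist1h4i, nearly as abundant as Hist1h4c, had 10.9, 7.46, 6.54 and 11.8 TPM, and Hist1h4d had 3.45, 1.72, 3.18 and 5.12 TPM. For these the groups overlapped (log2 fold changes −0.03 and 0.54, adjusted p = 0.957 and 0.341), and the sign for Hist1h4i turned with the scaling of the libraries. Of the 6 H4 rows tested 4 lay wholly above the controls, against 31.1% of all genes tested, and 2 overlapped.

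**Figure D3:**
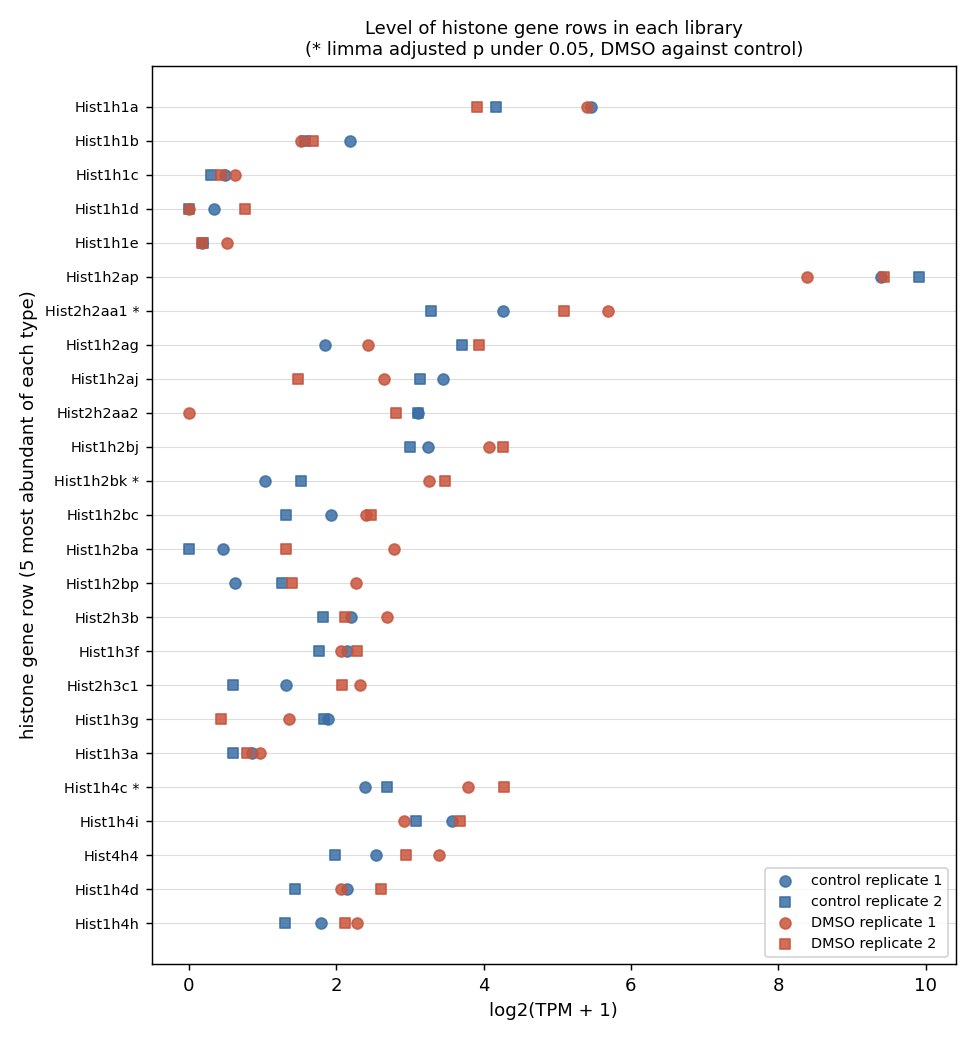
Level of the 5 most abundant rows of each histone type, as log2(TPM + 1), with 1 point per library (blue control, red DMSO, circle replicate 1, square replicate 2) and an asterisk for rows with an adjusted p under 0.05. The DMSO points of Hist1h2bk, Hist1h2bj and Hist1h4c lie to the right of both controls, while for Hist1h1a the 2 replicates of each group lie far apart.

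H2A held rows of both directions. Hist2h2aa1 (ENSMUSG00000064220, chr3:96245497-96246082, plus strand, GRCm38) had 18.3 and 8.74 TPM in the controls and 50.5 and 33.2 TPM with DMSO. Its log2 fold change was 1.61 ± 0.41 (SE, adjusted p = 0.0408), and the adjusted p lay between 0.0564 and 0.234 without any 1 library and between 0.00436 and 0.234 over all alternatives, the call being lost without a trend in eBayes as well. Hist2h2aa2, its neighbour on the opposite strand, lies wholly within it in sequence, for all 498 words of Hist2h2aa2 occur in Hist2h2aa1 and 89.6% of those of Hist2h2aa1 in Hist2h2aa2. It was listed at 7.62, 7.66, 7.46e-06 and 6.03 TPM, and where the shared reads of DMSO replicate 1 were placed was not tested. The row of Hist2h2aa1 alone is uncertain for that reason. The sum of the 2 copies was 25.9 and 16.4 TPM in the controls and 50.5 and 39.2 TPM with DMSO, 2.12-fold higher with no overlap. Genes annotated antisense to this cluster overlap these copies, and without a statement on strand in the quantification their reads cannot be told apart.

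The abundant Hist1h2ap did not pass the test, but did under 1 of the alternatives. Its log2 fold change was −0.73 ± 0.40 (SE, adjusted p = 0.206, from 0.0188 to 0.734 over the 11 alternatives), its DMSO libraries differed from each other about as much as the groups did (334 and 691 TPM), and DMSO replicate 2 lay above control replicate 1. Without any 1 library the log2 fold change ran from −1.26 to −0.21, lowest without DMSO replicate 2 and highest without DMSO replicate 1. The row shares 93.4% of its words with other genes, 43.6% with genes that are not among the 67 members. The 12 Hist1 H2A rows that hold at least 50% of its words, itself included, summed to 686, 990, 352 and 723 TPM, with overlap. The 11 without it summed to 17.6, 30.2, 17.2 and 32.6 TPM, higher in replicate 2 of each group.

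Among lower H2A rows, Hist1h2aj, annotated as a pseudogene, had 9.94 and 7.84 TPM in the controls and 5.28 and 1.79 TPM with DMSO (log2 fold change −1.23, adjusted p = 0.0929). It passed only with the replicate block (adjusted p = 0.0221). Hist1h2ag had 2.62, 12.0, 4.38 and 14.4 TPM (0.41, adjusted p = 0.693), higher in replicate 2 of each group. Hist1h2aa encodes TH2A, the testis and oocyte partner of TH2B. It had 2.35, 1.39, 6.01 and 4.69 TPM (1.16, adjusted p = 0.0612) and shares 28.3% of its words. It was higher in each DMSO library than in either control without passing the test. With median-ratio scaling (adjusted p = 0.04905) and with the replicate block (adjusted p = 0.0195) it did pass. Hist1h2ai, at 0 in both controls, was listed at 0.199 and 4.29 TPM with DMSO.

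No H3 or H1 row passed the test, but Hist2h3c1 did under 1 of the alternatives, the replicate block (adjusted p = 0.0228). Hist2h3b had 3.58, 2.53, 5.44 and 3.36 TPM (log2 fold change 0.40, adjusted p = 0.438) and Hist1h3f 3.42, 2.40, 3.17 and 3.87 TPM (0.22, adjusted p = 0.652), both with overlap. Hist2h3c1 had 1.51 and 0.519 TPM in the controls and 4.03 and 3.21 TPM with DMSO (1.24, adjusted p = 0.0647). All of its words occur in other transcripts. Hist1h3g had 2.70, 2.57, 1.57 and 0.349 TPM (−0.96, adjusted p = 0.134). It passed the filter only through the controls, so nothing is read from its direction. Of the linker genes, Hist1h1a had 42.9, 16.9, 41.5 and 14.0 TPM. It was thus high in replicate 1 and low in replicate 2 of each group, and its log2 fold change of −0.15 (adjusted p = 0.863) was far inside that spread. Only 0.281% of its words are shared with other genes, and the cause of the spread between replicates was not tested. Hist1h1b had 3.56, 1.99, 1.87 and 2.22 TPM (−0.28, adjusted p = 0.591), and Hist1h1c, Hist1h1d and Hist1h1e were under the filter.

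The members sit in 4 clusters, with 54 rows on chromosome 13 (Hist1), 9 on chromosome 3 (Hist2), 3 on chromosome 11 (Hist3) and 1 on chromosome 6 (Hist4). The Hist1 rows summed to 784, 1052, 482 and 835 TPM, with overlap between groups. Without Hist1h2ap they summed to 116 and 92.3 TPM in the controls and to 147 and 144 TPM with DMSO, 1.40-fold higher. The Hist2 rows summed to 33.1, 20.4, 60.6 and 46.7 TPM, 2.00-fold higher. Without Hist2h2aa1 the other 8 gave 14.8, 11.7, 10.1 and 13.5 TPM, with overlap, and without both Hist2h2aa copies the other 7 gave 7.15, 4.04, 10.1 and 7.51 TPM, 1.57-fold higher. The Hist3 rows gave 0.233, 1.45, 2.61 and 3.60 TPM. In the sums of Hist2, Hist3 and Hist1 without Hist1h2ap both DMSO libraries lay above both controls.

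In the clusters, H2A and H2B genes often start back to back from a shared stretch of DNA. There were 13 such pairs among the members, with annotated starts 173 to 306 bases apart. In 7 of the 13 pairs the mean levels of the 2 genes were within 2-fold of each other. These include Hist1h2ak with Hist1h2bn, Hist1h2bq with Hist1h2ao and Hist1h2bf with Hist1h2ad, in which both means were under 1 TPM. Hist1h2bn, Hist1h2ao and Hist1h2ad were each above 0 in a single library, so nothing is read from the likeness of those pairs. The share among unrelated pairs of genes was not tested. The most unequal pair in which both genes were above 0 was that of Hist1h2ap, which had a mean of 663 TPM while its partner Hist1h2br, starting 236 bases away, had a mean of 0.608 TPM. In contrast, Hist1h2ag and Hist1h2bj, with starts 270 bases apart, had means of 8.35 and 12.4 TPM, and Hist1h2ah and Hist1h2bk, 302 bases apart, had means of 1.79 and 5.41 TPM. The divergent promoter of Hist1h2bk, the row that rose with the lowest adjusted p, and that of Hist1h2ap, the most abundant row, are shown to compare them. Both come from RefSeq on GRCm38.p6, 5′ to 3′ on the strand of the named gene and ending before whichever of its RefSeq and GENCODE starts lies further upstream. For Hist1h2bk that is the RefSeq start and for Hist1h2ap the GENCODE start, while the distances above use GENCODE starts. Hist1h2bk is at chr13:22035571-22035820 on the plus strand and Hist1h2ap at chr13:21833508-21833725 on the minus strand. Capitals mark CCAAT and TATAAA read on either strand, so ATTGG and TTTATA count as well.
Hist1h2bk: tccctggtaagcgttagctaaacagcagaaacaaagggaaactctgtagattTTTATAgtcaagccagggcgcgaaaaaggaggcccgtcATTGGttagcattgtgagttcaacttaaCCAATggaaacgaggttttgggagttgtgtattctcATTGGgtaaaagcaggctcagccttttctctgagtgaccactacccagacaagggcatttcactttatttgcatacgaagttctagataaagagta
Hist1h2ap: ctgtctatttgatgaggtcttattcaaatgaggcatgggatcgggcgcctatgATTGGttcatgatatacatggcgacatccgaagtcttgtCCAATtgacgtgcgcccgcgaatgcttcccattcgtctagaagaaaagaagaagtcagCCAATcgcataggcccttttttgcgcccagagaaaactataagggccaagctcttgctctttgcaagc
CCAAT, the box read by the factor NF-Y, occurred on either strand within 250 bases before the start in 48 of the 59 members found in the RefSeq table (81.4%), against 37.5% of 27025 genes in it. TATAAA occurred in 29 of the 59 (49.2%), against 14.3% of those genes. Both promoters shown hold CCAAT, and TATAAA is found in that of Hist1h2bk and not in that of Hist1h2ap, a description of these letters only. In that of Hist1h2bk it is written TTTATA, so it reads as TATAAA on the strand of the partner Hist1h2ah, whose start is the nearer one.

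The rows were also sorted by how their annotated transcripts end. Of the 42 members with a stem-loop 16 were tested and 3 rose. Of the 8 coding members with room for a stem-loop but none found, 5 were tested and 0 passed. The 3 rows that rose are thus among the 16 of 29 tested rows that carry the stem-loop, too few to read a difference from, and 6.42% of all genes tested rose. The hexamer AATAAA, which precedes poly(A) addition, lay in the last 40 bases of an annotated transcript for 15 members. Of these 5 were tested and 0 passed, 2 of them (Hist1h2bp and Hist3h2ba) having entered only through their DMSO values. For the other 52 members 24 were tested and 3 rose. The difference between these kinds of rows was not tested.

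Replication-independent variants, most of which are made throughout the cell cycle from polyadenylated mRNAs, differed in abundance from the members by type. The 2 H3.3 genes summed to 2327, 2136, 2357 and 1634 TPM, far above the H3 rows, whereas the linker genes H1f0, H1foo and H1fx summed to 56.1, 30.7, 104 and 71.5 TPM, within a few-fold of the H1 rows. Of 16 listed, 11 were tested, 1 rose and 0 fell, against 6.42% and 14.1% of all genes tested. At an unadjusted p under 0.05, 2 were higher and 3 lower, against 15.8% and 24.3%. The list had a median log2 fold change of 0.06 (−0.08 over variants averaging 5 TPM or more). The one that rose was H1f0, the linker histone H1.0, with 18.6 and 17.1 TPM in the controls and 47.7 and 36.1 TPM with DMSO (1.17 ± 0.29, SE, adjusted p = 0.0369). H1foo, the oocyte linker histone, had 36.4, 11.8, 53.5 and 31.4 TPM (0.94, adjusted p = 0.229), so its control replicate 1 lay above DMSO replicate 2.

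The main H3.3 gene H3f3b had 2038, 1709, 2212 and 1406 TPM (−0.08, adjusted p = 0.852, a sign that turned with median-ratio scaling). H3f3a, encoding the same protein, had 289, 427, 145 and 228 TPM (−0.95, adjusted p = 0.0835). Of the H2A variants, H2afz (H2A.Z) had 153, 146, 239 and 175 TPM (0.45, adjusted p = 0.2405). H2afv, a second H2A.Z gene, had 540, 444, 319 and 304 TPM (−0.65, adjusted p = 0.0996). H2afj had 24.2, 29.8, 6.71 and 16.6 TPM (−1.26, adjusted p = 0.0804), and H2afx, which marks DNA breaks when phosphorylated, had 10.4, 14.1, 9.29 and 17.3 TPM (0.06, adjusted p = 0.912). Cenpa, the H3 variant of centromeres, had 412, 393, 306 and 294 TPM (−0.42, adjusted p = 0.215). Of the 11 variants tested, 4 (H3f3a, H2afv, H2afj and Cenpa) were lower in both DMSO libraries than in either control and 4 (H1f0, H1fx, H2afy and H2afz) were higher in both, 36.4% each, against 38.7% and 31.1% of all genes tested.

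Genes for the synthesis, processing and decay of histone mRNA were taken as a list of supply genes. Of 23 listed, 22 had a row and 21 were tested. At an adjusted p under 0.05, 5 fell and 0 rose, against 14.1% and 6.42% of all genes tested, and at an unadjusted p under 0.05, 7 were lower and 0 higher, against 24.3% and 15.8%. The median was −0.22, but 0.0093 with quantile normalization and −0.49 to −0.029 without any 1 library. Ncbp2, the cap-binding subunit of the nuclear cap-binding complex, had 343 and 470 TPM in the controls and 72.1 and 143 TPM with DMSO (−1.97 ± 0.38, SE, adjusted p = 0.0245). Its partner Ncbp1 had 204, 220, 91.8 and 126 TPM (−0.97 ± 0.27, SE, adjusted p = 0.0488). Cpsf3, the nuclease that cuts histone pre-mRNA behind the stem-loop, had 8.88, 10.1, 2.69 and 1.35 TPM (−1.83 ± 0.36, SE, adjusted p = 0.0252). Cdk2, the kinase that with cyclin E activates histone transcription through NPAT, had 34.6, 40.9, 12.2 and 16.4 TPM (−1.35 ± 0.30, SE, adjusted p = 0.0303). Eri1, an exonuclease that binds the stem-loop and takes part in histone mRNA decay, had 10.1, 12.3, 4.96 and 4.25 TPM (−1.12 ± 0.31, SE, adjusted p = 0.0488). The calls of Eri1 and Ncbp1 were lost with median-ratio scaling, with quantile normalization and without a trend in eBayes, and that of Ncbp1 also with a pseudocount of 0.1. Over the 11 alternatives the adjusted p ran from 0.0176 to 0.276 for Eri1 and from 0.00913 to 0.261 for Ncbp1.

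Other members of the list did not pass the test. Slbp, which binds the stem-loop, had 226, 193, 288 and 269 TPM (0.41, adjusted p = 0.239), higher in both DMSO libraries than in either control. Npat, the transcription coactivator of histone genes, had 41.5, 33.1, 25.8 and 15.99 TPM (−0.84, adjusted p = 0.110), lower in both DMSO libraries than in either control. Lsm10 and Lsm11, subunits of the U7 particle that guides the cut, had log2 fold changes of 0.44 and 0.38 (adjusted p = 0.429 and 0.454). Slbp, Npat, Lsm10 and Lsm11 are given here for their roles, with their values known.

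**Figure D4:**
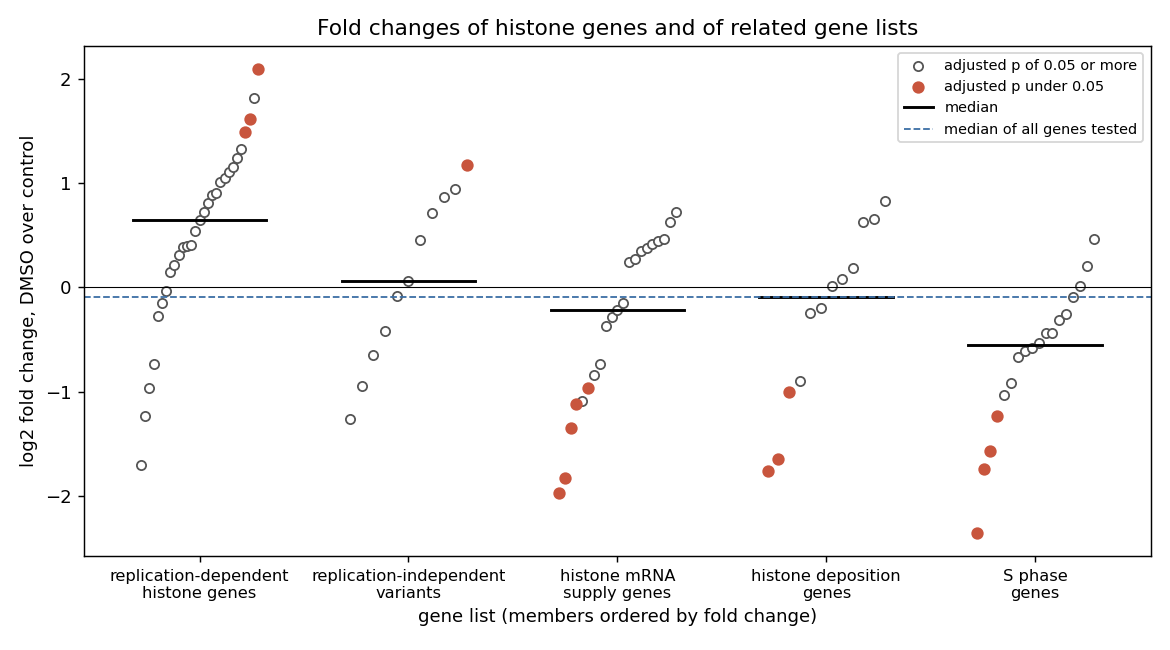
Log2 fold change of DMSO over control for each gene tested in 5 lists, with filled red points for an adjusted p under 0.05, a black bar for the list's median and a dashed line for the median of all genes tested (−0.09). The histone rows have a median of 0.65 (0.16 with no filter on low values, where that of all genes was 0.0012). They have 3 red points above 0, while the red points of the supply, deposition and S phase lists lie below 0.

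Histone deposition and S phase genes gave the setting in which histones are used. Of 13 genes for chaperones, importers and modifiers of new histones 12 were tested, 3 fell and 0 rose, against 14.1% and 6.42% of all genes tested. At an unadjusted p under 0.05, 4 were lower and 1 higher, against 24.3% and 15.8%. The median was −0.09, but 0.083 with quantile normalization and −0.17 to 0.028 without any 1 library. Hat1, which acetylates new H4, had 46.4, 75.6, 14.9 and 19.0 TPM (−1.76 ± 0.33, SE, adjusted p = 0.0239). Ipo4, which imports H3 and H4, had 218, 253, 62.2 and 88.0 TPM (−1.65 ± 0.28, SE, adjusted p = 0.0211). Rbbp4, a subunit of the assembly factor CAF-1, had 64.1, 64.8, 30.1 and 33.2 TPM (−1.01 ± 0.26, SE, adjusted p = 0.0400), a call lost with median-ratio scaling, with quantile normalization and without a trend in eBayes (0.0105 to 0.231 over the 11 alternatives).

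Of 18 S phase genes, all tested, 4 fell (22.2%) and 0 rose, against 14.1% and 6.42% of all genes tested. At an unadjusted p under 0.05, 6 were lower and 0 higher, against 24.3% and 15.8%. The median was −0.56, but −0.34 with quantile normalization and −0.62 to −0.34 without any 1 library. For 13 (72.2%, against 38.7% of all genes tested) both DMSO libraries lay below both controls. Tyms, which makes thymidylate, had 14.4, 33.9, 2.94 and 4.19 TPM (−2.36 ± 0.45, SE, adjusted p = 0.0242), and Gins1, of the replicative helicase, 53.4, 50.7, 12.7 and 17.3 TPM (−1.74 ± 0.29, SE, adjusted p = 0.0209). Rrm1, of ribonucleotide reductase, had 26.01, 15.97, 7.09 and 5.38 TPM (−1.58 ± 0.35, SE, adjusted p = 0.0315). Mcm3, of the same helicase as Gins1, had 249, 181, 88.2 and 91.1 TPM (−1.24 ± 0.27, SE, adjusted p = 0.0300), a call lost with quantile normalization (0.00592 to 0.160 over the 11 alternatives). Calls over the whole table were also more often lower than higher, and the difference between these lists and the histone members was not tested. In these lists, as among the histone members, leaving out control replicate 1, control replicate 2 or DMSO replicate 1 left 0 genes with an adjusted p under 0.05, as it did over all genes tested (3745, 2602 and 3078 genes at an unadjusted p under 0.05).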

How the data were processed

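RNA of 2-cell embryos was sequenced in 4 libraries, 2 control and 2 DMSO, grouped by the sample labels. The authors ran kallisto against Ensembl transcripts (GRCm38), summarised them per gene with tximport and deposited TPM values. The submitters' processing notes also list STAR, SAMtools and bedtools. Symbols, positions and transcripts came from GENCODE M21 on GRCm38, which named 29668 of 30049 rows. It lists 70 members, and Hist2h2bb, Hist1h2bm and Hist1h2bh were not analysed here. Promoters came from RefSeq on GRCm38.p6 (59 members matched).

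A two-sided test in limma 3.58.1 (R 4.3.3) was run on log2(TPM + 1) for rows averaging 1 TPM or more (eBayes with a mean-variance trend, Benjamini-Hochberg adjustment over all 12038 genes, threshold 0.05), after a test on simulated data. Lists are described by counts and medians. Alternatives were a pseudocount of 0.1, no filter, a mean of at least 5 TPM, median-ratio scaling, quantile normalization, eBayes without a trend, a replicate block, leaving out each library and, for sums, protein-coding rows only or without the most abundant row. Named genes were the 5 most abundant rows of each histone type, every gene called, and variants with a mean of at least 10 TPM, others being marked or given as examples. The members and all lists were chosen with earlier results of these data known. Other steps used Python 3.11.15, pandas 2.3.3, numpy 2.4.6 and matplotlib 3.10.9. Srrt was not analysed here. The raw reads were not used here.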

Additional observations from a re-analysis of the deposited data

How the results depend on the processing

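More than the fold changes, the calls depended on which library was left out, on dropping the low-value filter and on the replicate block. The cause was not tested. Without any 1 library, where the lone library left in a group is assumed to vary like those of the other group, the genes called numbered 0 to 1276 lower and 0 to 607 higher over all genes, 0 to 1 lower and 0 to 2 higher among the members, 0 to 3 lower for supply, 0 to 1 lower and 0 to 1 higher for variants, 0 to 2 lower for deposition and 0 to 3 lower for S phase genes. The medians then ran from −0.49 to −0.029 for supply and from −0.62 to −0.34 for S phase genes. Without DMSO replicate 2 the log2 fold changes were 1.98 for Hist1h2bk, 2.55 for Hist1h2ba and −3.11 for Hist2h2aa2. Hist1h2ba had passed the filter only through the DMSO libraries, so nothing is read from its direction. With no filter on low values (22257 genes, 5368 at an unadjusted p under 0.05), 0 genes were called in either direction over all genes and in each list, and the members' median was 0.16. The members' median was 0.88 with a pseudocount of 0.1 and 0.41 with a mean of at least 5 TPM. Median-ratio scaling gave 5 members higher and 3 supply genes lower, beside 949 genes higher and 1262 lower of all 12038. Quantile normalization gave 1076 genes higher and 1121 lower of all 12038, and 5 members higher. Hist1h2ba, among those 5, had passed the filter only through the DMSO libraries, so nothing is read from its direction. Quantile normalization also gave 3 supply genes lower, and 2 deposition genes lower and 1 higher. Its medians were 0.0093 for supply and −0.34 for S phase genes. Without a trend in eBayes 3 supply genes were lower.

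The groups share replicate numbers, but no label says that a number marks a shared batch, and there are only 2 pairs. Across 12038 genes, libraries with the same number departed from the means of their groups with a correlation of r = 0.354. With the replicate block 2981 genes were called lower and 2151 higher, or 24.8% and 17.9% of those tested. Among the members 9 were higher and 2 lower (Hist1h2aj, and Hist1h2ap with an adjusted p of 0.0188). The 9 were the 3 called without the block and Hist1h2bj, Hist1h2aa, Hist2h3c1, Hist4h4, Hist1h2ba and Hist3h2ba. Hist1h2ba and Hist3h2ba had passed the filter only through the DMSO libraries, so nothing is read from their direction. The block gave 8 supply genes lower, 3 variants lower and 2 higher, and 4 deposition genes lower and 2 higher. Of the S phase genes 6 were lower and 0 higher.

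The log2 ratio of the H2A sum, −0.55, was 0.66 without its most abundant row and −1.08 to −0.17 without any 1 library, that of all members, −0.39, was 0.64 without that row, and that of H4, 0.88, was 0.60 without its most abundant row. That of H2B, 1.36, was 1.46 with median-ratio scaling, 1.41 with quantile normalization and 1.53 without its most abundant row. In sums chosen after seeing the data, leaving out Hist1h2ap and Hist2h2aa1 gave −0.0098 for H2A and 0.47 for all members, leaving out Hist1h2ap and the 3 rows called gave 0.31 for all members, and leaving out Hist1h2bk gave 1.12 for H2B. Likewise the log2 ratio of the Hist2 sum, 1.003, was −0.16 leaving out Hist2h2aa1, and the members' median was 0.47 over rows that averaged 1 TPM or more in each group. Signs turned for Hist1h1a (0.027 with quantile normalization, −0.90 to 0.60 without any 1 library), Hist1h4i (0.062 with median-ratio scaling, 0.042 with quantile normalization, −0.41 to 0.35), H3f3b (0.020 with median-ratio scaling, −0.41 to 0.25), Hist1h1b (−0.58 to 0.027), Hist1h2ag (−0.52 to 1.33), H2afx (−0.35 to 0.48), Hist1h2an (−0.46 to 0.75) and Hist1h2ac (−0.18 to 0.95). The H1 sum, −0.11, was 0.011 with median-ratio scaling, 0.081 with quantile normalization and −0.93 to 0.68 without any 1 library. The H2B and H4 sums stayed higher with DMSO in every setting run. TPM keep no depth, so the precision of low rows is unknown.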
